A study of Mus musculus with 88 samples.

Results

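The genes described here form a module of striatal cAMP and G protein signalling: 34 genes for adenylyl cyclases, cyclic nucleotide phosphodiesterases, subunits of protein kinase A (PKA), regulators of G protein signalling (RGS) and G protein subunits, out of 55487 genes in the deposited count table. They were chosen by name, as 8 adenylyl cyclases, 10 phosphodiesterases, 6 PKA subunits, 6 RGS proteins and 4 G protein subunits, and all 34 passed the filter on low counts that left 25420 genes. The RNA was taken from nucleus accumbens, 6 days after surgery with herpes simplex vectors, in mice of both sexes bred on C57BL/6. Every group received dCas9-CREB(S133D), in which Cas9 that cannot cut carries a version of the transcription factor CREB that mimics its phosphorylated, active state. The activator is thus shared by all groups, controls included, and the guide RNA differs. The targeted groups carried the Fosb guide (g11) and the control groups a non-targeted guide (gNT).

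Each sex had 3 arms. In the D1 arm, D1-Cre mice received Cre-dependent vectors, which gave 6 targeted and 8 control libraries of females and 7 targeted and 4 control libraries of males. In the D2 arm, D2-Cre mice received Cre-dependent vectors, which gave 8 targeted and 8 control libraries of females and 7 targeted and 8 control libraries of males. In the D1D2 arm, D1-Cre mice received vectors that do not depend on Cre, which gave 12 targeted and 8 control libraries of females and 4 targeted and 7 control libraries of males. The labels do not give the share of cells that were infected, and the RNA is from whole dissected tissue. In such samples fewer cells of a type and less RNA per cell cannot be told apart. The labels do not say whether each library is 1 mouse, so p-values measure the spread between libraries.

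In this pathway, receptors that couple to the stimulatory subunits Gαs or Gαolf switch on adenylyl cyclase, receptors that couple to Gαi switch it off, and phosphodiesterases break down the cAMP that is made. cAMP frees the catalytic subunits of PKA from their regulatory subunits, and CREB is among the proteins that PKA phosphorylates. Medium spiny neurons, the projection neurons of the striatum and accumbens, use a particular set of these proteins: Gαolf (Gnal) with Gγ7 (Gng7), adenylyl cyclase 5 (Adcy5), the phosphodiesterases Pde10a and Pde1b, and Rgs9 with its partner Gβ5 (Gnb5). D1 receptors raise cAMP in direct-pathway cells, and D2 receptors lower it in indirect-pathway cells, where the adenosine receptor encoded by Adora2a raises it.

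Libraries held 12430387 to 69568367 counts, with a median of 31393804. In 4 libraries, all with the Fosb guide, over 90% of counts fell on 10 genes, and 1 of them, female D1D2 targeted library 19610, had 3744 counts in the 34 genes together. In the 50 libraries labelled female, summed transcripts of Y-linked genes were highest in 3: D1D2 targeted library 19749 with a summed level of 85.5 CPM (counts scaled to a fixed library total), D1 targeted library 17376 with 79.9 CPM and D1D2 control library 19598 with 21.2 CPM. Libraries 17907, 17457, 19762, 18432 and 19610 followed with 8.04 to 13.3 CPM, and the next had 2.82 CPM. The median over libraries labelled female was 0.269 CPM, and the libraries labelled male ran from 127 to 250.5 CPM. Male D1D2 targeted library 18749 and male D1 targeted library 18722 were the closest of 3741 pairs, with a chi-square of 3.86 per degree of freedom where counting noise gives 1 and the median pair 231. The summed level of 6 medium spiny neuron markers ran from 545 to 2939 CPM over all libraries. Fosb itself averaged 9.70 ± 2.38 CPM in targeted and 7.29 ± 1.51 CPM in control libraries of the female D1 arm, and its log2 fold changes, targeted over control, over the 6 arms ran from −0.37 to 0.60 with none passing the test.

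Because the activator in all groups was CREB, the promoters of the genes were searched on both strands for the cAMP response element that CREB binds, TGACGTCA, and its shorter core TGACGT, and for the AP-1 site TGAGTCA that FosB proteins bind with Jun partners. RefSeq promoters of build GRCm38.p6, from 250 bases before to 50 after each start, were at hand for 30 of the 34 genes and gave 73 windows, since some genes have several starts. The full element was in 2 windows, both of Prkar1a, which is 2.74% of the windows, against 1.79% of 32851 windows over all genes. The core, which lies within the full element, was in 6 windows (8.22%), those of Adcy9, Pde4a, Pde4b, Prkar1a and Rgs2, against 7.51% over all genes. The AP-1 site was in 2 windows (2.74%), of Adcy7 and Pde1c, against 5.2% over all genes. These matches describe letters in a window and are not sites of binding.

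The promoters below are of genes that the results return to: Prkar1a, which holds the full element, Rgs2 and Adcy9, which hold the core, Rgs4, whose level differed most between guides in female D1 mice, and Rgs9, which followed medium spiny neuron markers most closely. Each runs 5′ to 3′, and capitals mark the element or core, on either strand; Rgs4 and Rgs9 have none of these letters in the window.
Prkar1a, chr11:109650699-109650998, plus strand: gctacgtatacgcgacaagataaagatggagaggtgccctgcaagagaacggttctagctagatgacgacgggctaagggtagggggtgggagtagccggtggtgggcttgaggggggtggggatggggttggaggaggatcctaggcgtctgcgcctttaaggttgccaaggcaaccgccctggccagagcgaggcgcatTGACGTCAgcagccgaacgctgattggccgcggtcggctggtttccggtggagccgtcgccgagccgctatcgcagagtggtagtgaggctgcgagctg
Rgs2, chr1:144004100-144004399, minus strand: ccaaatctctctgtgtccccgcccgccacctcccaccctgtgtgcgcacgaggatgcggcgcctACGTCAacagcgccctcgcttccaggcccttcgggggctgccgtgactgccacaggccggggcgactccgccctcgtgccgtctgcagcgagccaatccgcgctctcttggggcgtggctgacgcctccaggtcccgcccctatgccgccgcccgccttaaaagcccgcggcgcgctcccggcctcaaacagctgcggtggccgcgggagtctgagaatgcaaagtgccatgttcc
Adcy9, chr16:4420449-4420748, minus strand: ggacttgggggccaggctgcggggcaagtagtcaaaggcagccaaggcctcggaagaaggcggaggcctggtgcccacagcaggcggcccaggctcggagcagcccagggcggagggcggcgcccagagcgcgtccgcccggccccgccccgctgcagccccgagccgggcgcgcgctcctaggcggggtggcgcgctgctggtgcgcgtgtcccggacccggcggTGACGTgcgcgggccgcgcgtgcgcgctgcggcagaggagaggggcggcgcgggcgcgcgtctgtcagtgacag
Rgs4, chr1:169747593-169747892, minus strand: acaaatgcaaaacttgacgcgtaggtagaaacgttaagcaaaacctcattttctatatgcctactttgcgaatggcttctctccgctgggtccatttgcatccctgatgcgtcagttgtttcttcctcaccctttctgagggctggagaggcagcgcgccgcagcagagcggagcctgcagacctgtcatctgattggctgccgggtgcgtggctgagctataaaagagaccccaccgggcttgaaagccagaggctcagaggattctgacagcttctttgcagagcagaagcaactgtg
Rgs9, chr11:109298132-109298431, minus strand: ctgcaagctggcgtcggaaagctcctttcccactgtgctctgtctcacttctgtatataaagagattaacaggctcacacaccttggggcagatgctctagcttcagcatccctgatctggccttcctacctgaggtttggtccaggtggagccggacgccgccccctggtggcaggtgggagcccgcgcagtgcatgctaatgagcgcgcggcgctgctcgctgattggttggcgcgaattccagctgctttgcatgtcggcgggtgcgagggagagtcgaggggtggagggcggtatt

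Levels in the 43 control libraries, as mean CPM per kilobase of exon with SD, spanned from 109 ± 16.01 for Prkar1a to 0.991 ± 0.572 for Adcy8. Among the adenylyl cyclases Adcy5, the main striatal cyclase, led with 74.1 ± 28.5 CPM per kilobase. The other cyclases stood well below it. Adcy2 had 12.8, Adcy9 had 9.70, the calmodulin-stimulated Adcy1 had 8.62, Adcy3 had 6.498, Adcy7 had 2.78 and Adcy6, the closest relative of Adcy5, had 1.82 CPM per kilobase. Among the phosphodiesterases Pde1b, which calcium and calmodulin activate, had 94.9 ± 29.9 and Pde10a, which breaks down both cAMP and cGMP, had 41.3 ± 17.3 CPM per kilobase. Pde1a had 21.9, the cGMP-stimulated Pde2a 20.8, and the cAMP-specific Pde8b 18.8, Pde4b 17.8 and Pde7b 9.11 CPM per kilobase. Pde4d with 3.65, Pde4a with 3.05 and Pde1c with 2.69 CPM per kilobase were the lowest of that family.

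PKA regulatory subunit Iα, Prkar1a, was the highest of all 34 genes, and the neuronal subunit Iβ, Prkar1b, followed within PKA with 66.2 ± 15.9 CPM per kilobase. The catalytic subunits had 51.9 ± 10.4 (Prkacb) and 37.4 ± 6.998 (Prkaca) CPM per kilobase. Prkar2b, the type II regulatory subunit of striatal neurons, had 37.4 and Prkar2a had 6.78 CPM per kilobase. Of the RGS genes, whose proteins speed the shut-off of Gα subunits, Rgs4 had 89.7 ± 27.6, Rgs2 32.1, Rgs9 21.1, Rgs14 15.4, Rgs8 10.3 and Rgs7 8.51 CPM per kilobase. Of the G protein subunits Gng7 had 72.9 ± 28.9, Gnb5 50.9, Gnal 31.5 and Gnas, which encodes Gαs, 15.1 CPM per kilobase. Neighbours in this order mostly lay within each other's SD, as Prkaca with 37.4 ± 6.998 and Prkar2b with 37.4 ± 9.18 CPM per kilobase.

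Some of these counts share sequence with other annotated genes, and whether the counting used strand is not stated in the labels or notes. Pde2a shares 1364 exon bases with Gm45837 on the same strand, and both were counted at like totals over all libraries (426165 and 416887 counts). Gnas overlaps Gm20721 on the opposite strand, which had 521830 counts against 566135 for Gnas, and Gnal overlaps Mppe1 over 842 bases and Adcy3 overlaps Cenpo over 921 bases on the opposite strand. Their levels are therefore uncertain to that extent.

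**Figure D1:**
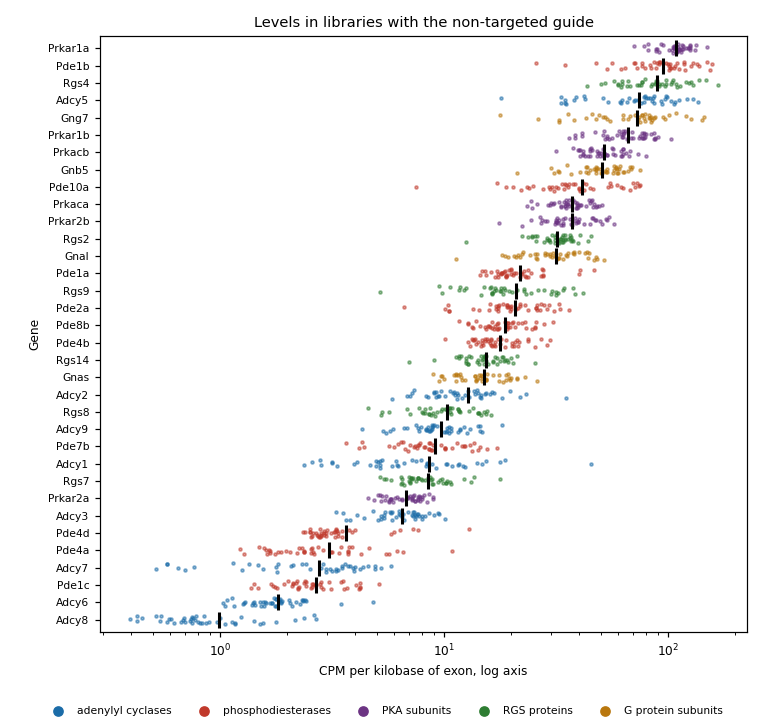
Level of each of the 34 genes in CPM per kilobase of exon on a log axis, with a dot for each of the 43 control libraries, a black mark for the mean and colours for roles, ordered by the mean. Prkar1a at 109, Pde1b at 94.9 and Rgs4 at 89.7 CPM per kilobase lead, and Adcy8 at 0.991 is lowest.

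The genes varied among libraries to very different degrees. Over the control libraries the highest value of Adcy1 was 19.1 times the lowest, that of Adcy7 11.2 times, that of Pde10a 10.03 times, that of Rgs9 8.06 times and that of Adcy5 7.56 times. Prkar1a with 2.12 times and Prkar2a with 1.96 times varied least. Over all 87 libraries a male D1D2 control, library 19511, was the lowest for 13 of the 34 genes, among them Adcy5, Pde1b, Pde10a, Rgs4, Rgs9, Gnal and Gng7. A female D1D2 targeted library, 19596, was the highest for 8 genes, among them Adcy5, Pde1b, Pde10a, Prkar2b, Gnal and Gng7. Male D2 control library 3631 was the highest for 7 genes, among them Adcy1 with 566 CPM and Pde4a with 83.1 CPM, and the lowest for 6, among them Rgs2, Rgs8, Prkar2b and Gnb5.

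The genes also moved together within groups. On log2(CPM + 1) values less the mean of each group and batch, over 87 libraries, Pde10a and Rgs9 had a Pearson correlation of 0.96, Adcy5 and Gng7 one of 0.94, and Adcy5 and Gnal one of 0.94. Among the 7 genes Adcy5, Pde10a, Pde1b, Pde7b, Rgs9, Gnal and Gng7, picked for display after their values were seen, the 21 correlations ran from 0.80 to 0.96, against a median of 0.29 over all 561 pairs of the 34 genes. Adcy1 and Pde4a moved together (0.81) and apart from that set. Adcy7 ran against most others, from −0.71 with Rgs7 to 0.059 at the highest. These values are descriptions, since all pairs share the same libraries and the same scaling.

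The main comparison asks whether these genes changed when the CREB activator was sent to Fosb. No gene of the module passed the test in any arm, by edgeR's quasi-likelihood test with Benjamini-Hochberg adjustment over all genes. The background was as low: 1 gene of 25420 (0.00393%) passed in the female D1 arm and 1 in the male D1D2 arm (0.00393%), 16 (0.0629%) in the male D2 arm, and 0 (0%) in each of the female D2, female D1D2 and male D1 arms. At an unadjusted p under 0.05 the counts of the 34 genes were 1, 2, 1, 0, 0 and 0 in the female D1, male D1, female D2, male D2, female D1D2 and male D1D2 arms, against 4.48%, 7.11%, 1.66%, 2.18%, 3.4% and 3.22% of all genes. The DESeq2 Wald test called 0 of the 34 in each arm and limma-voom 1, Adcy3 in the male D1 arm. The edgeR count was also 0 in each arm without the male libraries 18722 and 18749, without the 3 libraries labelled female with the most Y-linked transcripts, and without the 4 libraries in which 10 genes held over 90% of counts.

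The standard errors of these log2 fold changes set what could be seen, and over the 34 genes they ran from 0.075 to 0.33 in the female D1D2 arm, which had the most libraries, and from 0.10 to 0.46 in the male D1 arm. The 34 log2 fold changes had a median of −0.054 in the female D1 arm (all genes 0.0036), 0.13 in the male D1 arm (all genes 0.030), −0.15 in the female D2 arm (all genes −0.025), −0.051 in the male D2 arm (all genes 0.011), −0.14 in the female D1D2 arm (all genes −0.0039) and 0.043 in the male D1D2 arm (all genes −0.026). Other fits moved the medians of the male D1 and D1D2 arms. With offsets corrected for GC content they were 0.028 and 0.18, and with limma-voom 0.21 and −0.044. With the mean log2 CPM of 6 medium spiny neuron markers in the model they were 0.018 and −0.034. Leaving out 1 library moved these medians too. That of the male D1 arm was 0.051, 0.061, 0.079 and 0.21 without control library 17789, 18068, 18069 and 18383. That of the male D1D2 arm was 0.17 without targeted library 18749, 0.12 without 17728, 0.086 without 18919, −0.0087 without 19211 and 0.0038 without control library 19511. It was also 0.089 without male D1 control library 17789, 18068 or 18069, none of which is in this arm. Each refit repeated the filter and scaling over the libraries left, so these shifts do not measure the weight of the library left out alone. In the female D1D2 arm 31 of 34 lay below 0 and 3 above it, where 49.0% of all genes lay above 0. The 6 medium spiny neuron markers had a median log2 fold change there of −0.19, and none passed. Scores of interferon-stimulated genes, as mean log2 CPM, were 6.75 ± 0.74 in targeted and 5.04 ± 2.70 in control libraries (SD, n = 12 and 8). With that score in the model the median was −0.0082 and 16 of 34 lay above 0. With the same kind of score of the 6 medium spiny neuron markers in its place the median was −0.087 and 5 of 34 lay above 0. The part of either in the result was not tested.

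**Figure D2:**
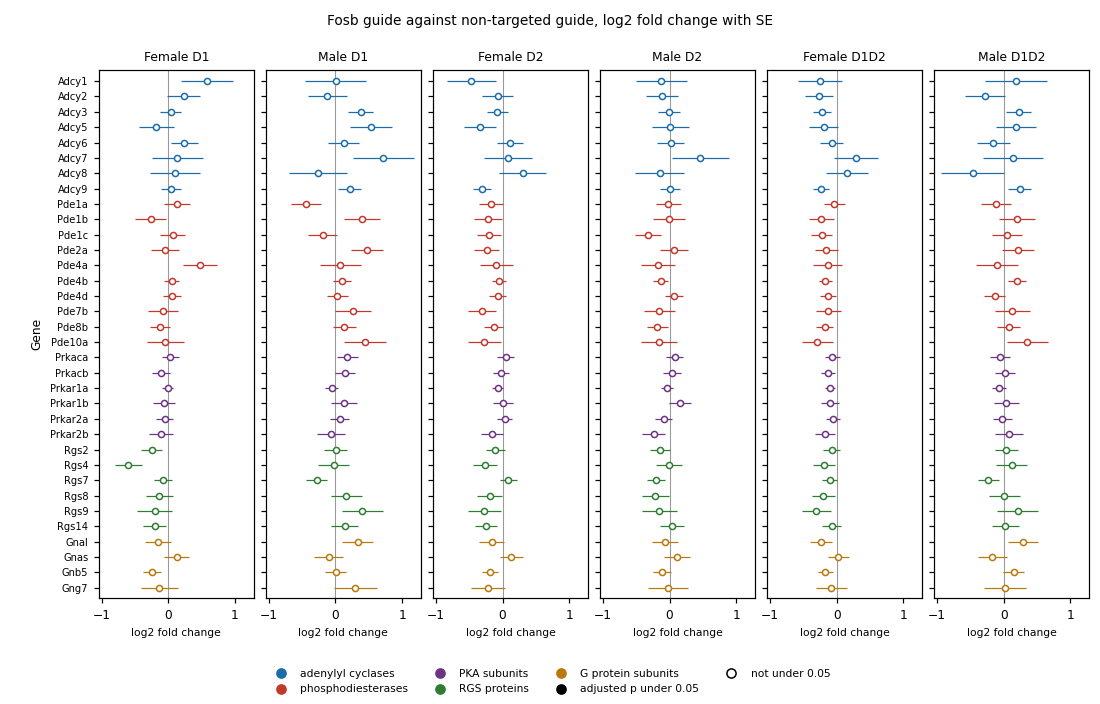
Log2 fold change, targeted over control, of each of the 34 genes in the 6 arms, with bars for the standard error and open dots for genes that did not pass the test. Every dot is open, the male D1 arm leans above 0 and the female D1D2 arm below it, and Rgs4 in the female D1 arm lies lowest at −0.60.

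In female D1 mice the lowest p among the 34 genes was that of Rgs4, which shuts off Gαi and Gαq signals (ENSMUSG00000038530.11; chromosome 1, 169741477 to 169747642 on mm10). Its levels were 161, 216 and 319 CPM (lowest, median and highest) in the 6 targeted libraries and 259.8, 330.2 and 516 CPM in the 8 control libraries. The ranges overlap, but the median of the targeted libraries lies below every control library. The log2 fold change, given ± SE here and throughout, was −0.60 ± 0.20 (adjusted p = 0.987). Gnb5, the Gβ subunit that stabilises Rgs7 and Rgs9, had 154 ± 18.4 CPM in targeted and 183 ± 33.2 CPM in control libraries, a log2 fold change of −0.25 ± 0.14 (adjusted p = 1). Rgs2, which acts mainly on Gαq, had 106 ± 17.0 and 126 ± 21.1 CPM, a log2 fold change of −0.25 ± 0.15 (adjusted p = 1). All 6 RGS genes had values below 0 in this arm, where 50.8% of all genes lay above 0, and none passed.

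Pde4a, a cAMP-specific phosphodiesterase, had 24.8 ± 7.96 CPM in targeted and 17.9 ± 4.86 CPM in control libraries of female D1 mice, a log2 fold change of 0.48 ± 0.26 (adjusted p = 1). Cortical glutamatergic markers moved with it. Their score, as mean log2 CPM over 7 genes, was 3.07 ± 1.43 in targeted and 0.50 ± 1.62 in control libraries (SD, n = 6 and 8), and with that score in the model the log2 fold change of Pde4a was −0.10. The summed level of those 7 markers ran from 45.7 to 681 CPM in targeted and from 4.77 to 226 CPM in control libraries. Adcy1 had 123 ± 70.6 and 82.1 ± 29.0 CPM in the same libraries, a log2 fold change of 0.58 ± 0.39 (adjusted p = 1). Rgs4 had a negative value in each of 15 alternatives, the cortical score among them, which ran from −0.63 to −0.58. These refit the same libraries of this arm, of which only 17376 was ever left out, so the narrow range is partly built in.

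In male D1 mice 25 of the 34 values lay above 0, where 54% of all genes did, with only 4 control libraries. Over all genes the median log2 fold change in this arm was −0.076 in the lowest quintile of GC content and 0.16 in the highest. Pde1a had 89.4, 113 and 133 CPM (lowest, median and highest) in the 7 targeted libraries and 109, 114, 147 and 239.7 CPM in the 4 control libraries. The control range is set by 1 high library, and the ranges overlap. The log2 fold change was −0.44 ± 0.22 (adjusted p = 0.686), and −0.14 without control library 18383, which is that high library. Adcy3, the cyclase of neuronal cilia, had 20.6, 36.0 and 43.7 CPM in targeted libraries and 20.5, 22.1, 23.7 and 36.4 CPM in control libraries, where 3 of the 4 lie at the low end of the targeted range. Its log2 fold change was 0.38 ± 0.19 (adjusted p = 0.686), and adjusted p ran down to 0.0356 with limma-voom and up to 0.958 over the 23 alternatives. Without control library 18383 the log2 fold change was 0.59. Pde2a gave 0.47 ± 0.24 (adjusted p = 0.686) and Rgs7 gave −0.28 ± 0.15 (adjusted p = 0.686).

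In female D2 mice 26 of 34 values lay below 0, where 43.1% of all genes lay above it. Adcy9, a widely expressed cyclase, had 31.8, 39.3 and 50.0034 CPM in the 8 targeted libraries and 40.0, 48.9 and 59.7 CPM in the 8 control libraries. The lower end of the control range overlaps the upper end of the targeted range. The log2 fold change was −0.30 ± 0.14 (adjusted p = 1). Rgs14, whose protein binds Gαi, had 58.9 ± 15.3 CPM in targeted and 70.6 ± 11.9 CPM in control libraries, a log2 fold change of −0.25 ± 0.16 (adjusted p = 1). Pde7b, a cAMP-specific phosphodiesterase of striatum, had 86.3 ± 16.9 and 108 ± 28.0 CPM, a log2 fold change of −0.31 ± 0.21 (adjusted p = 1), and Gnb5 gave −0.19 ± 0.13 (adjusted p = 1), or −0.11 without the 4 libraries in which 10 genes held over 90% of counts. The medium spiny neuron score was 7.44 ± 0.14 in targeted and 7.60 ± 0.36 in control libraries (SD, n = 8 each), and with that score in the model 12 of 34 values lay above 0.

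Male D2 libraries came in both sequencing batches, 4 of 7 targeted and 2 of 8 control libraries in batch 1 and the rest in batch 2. Pde1c, a calmodulin-activated phosphodiesterase, had 37.0, 49.8 and 69.3 CPM in targeted and 27.7, 79.2 and 103 CPM in control libraries. Within batch 1 its means were 45.8 ± 7.09 CPM in targeted and 57.5 ± 19.0 CPM in control libraries, and within batch 2 they were 61.4 ± 12.9 and 76.4 ± 25.6 CPM. With batch in the model its log2 fold change was −0.32 ± 0.19 (adjusted p = 1), with −0.36 ± 0.23 in batch 1 alone and −0.32 ± 0.34 in batch 2 alone. Prkar2b gave −0.24 ± 0.18 (adjusted p = 1), with −0.47 ± 0.13 in batch 1 and −0.11 ± 0.26 in batch 2. Rgs7, a striatal partner of Gnb5, gave −0.20 ± 0.13 (adjusted p = 1), with −0.28 ± 0.18 in batch 1 and −0.17 ± 0.17 in batch 2, and Pde8b gave −0.19 ± 0.15 (adjusted p = 1), with −0.11 ± 0.13 and −0.26 ± 0.17. Each was negative in both batches, but these genes were picked by lowest p from both batches together, so that is partly built in. In either batch 0 of 34 passed.

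In female D1D2 mice Adcy9 had 28.6, 45.8 and 69.8 CPM in the 12 targeted libraries and 39.1, 53.7 and 65.6 CPM in the 8 control libraries. The control range lies inside the targeted range. The log2 fold change was −0.23 ± 0.12 (adjusted p = 1), and Pde4b, the main phosphodiesterase 4 of this set, gave −0.17 ± 0.096 (adjusted p = 1) from 173 ± 26.8 CPM in targeted and 194 ± 28.4 CPM in control libraries. Adcy3 gave −0.22 ± 0.14 (adjusted p = 1) and Gnb5 −0.17 ± 0.11 (adjusted p = 1). In male D1D2 mice Pde4b had 167, 173, 177 and 205 CPM in the 4 targeted libraries and 107, 162 and 199 CPM in the 7 control libraries, and its log2 fold change was 0.20 ± 0.13 (adjusted p = 1). Adcy9 gave 0.24 ± 0.17 (adjusted p = 1), Gnal 0.28 ± 0.23 (adjusted p = 1) and Rgs7 −0.23 ± 0.16 (adjusted p = 1) in the same arm. Leaving out 1 library moved these values. Without targeted library 18749 Adcy9 gave 0.41, Gnal 0.47 and Rgs7 −0.15. Without targeted library 19211 Gnal gave 0.15 and Rgs7 −0.15, and without control library 19511 Adcy9 gave 0.13, Gnal 0.14 and Pde4b 0.12. Adcy9 and Pde4b thus had negative values in females and positive values in males of this arm. This difference within the arm was not tested, and that over all 3 arms is given next.

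Averages and differences of the arm effects also called 0 of the 34 genes. Background shares were 0% for the mean over 6 arms, 0.00393% for the mean of the D1 arms, 0% for those of the D2 and D1D2 arms, 0.00393% for the D1 effect minus the D2 effect and 0% for the female effect minus the male effect. Over all arms Rgs7 had the lowest p, with a log2 fold change of −0.14 ± 0.055 (adjusted p = 0.516), or −0.0048 with GC-corrected offsets and −0.072 with the interferon score, and was the only one of the 34 under an unadjusted 0.05 (9.52% of all genes were). Rgs4 gave −0.16 ± 0.083 (adjusted p = 0.528), Pde1c −0.14 ± 0.080 (adjusted p = 0.567) and Adcy7, a cyclase of microglia and immune cells, 0.30 ± 0.16 (adjusted p = 0.541). All 6 RGS genes lay below 0 in this mean, where 50.7% of all genes lay above 0, and their median was −0.092. The arms differed in this. Of the 6, 4 lay above 0 in the male D1 arm and 5 in the male D1D2 arm. In the female D1, female D2, male D2 and female D1D2 arms 0, 1, 1 and 0 did.

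Over the D1 arms Rgs4 gave −0.31 ± 0.15 (adjusted p = 0.675), Rgs7 −0.18 ± 0.10 (adjusted p = 0.677) and Adcy3 0.21 ± 0.12 (adjusted p = 0.688), or 0.31 without control library 18383. Over the D2 arms Pde1c gave −0.26 ± 0.13 (adjusted p = 1), and over the D1D2 arms Rgs7 gave −0.17 ± 0.096 (adjusted p = 1). The D1 effect minus the D2 effect was largest in its test for Adcy9, with a log2 difference of 0.27 ± 0.15 (adjusted p = 1). For the female effect minus the male effect 7 of the 34 genes were under an unadjusted 0.05, against 6.59% of all genes: Adcy9 (−0.32 ± 0.12), Pde2a (−0.40 ± 0.17), Rgs4 (−0.38 ± 0.17), Gnal (−0.37 ± 0.16), Pde1b (−0.43 ± 0.19), Adcy5 (−0.48 ± 0.22) and Adcy3 (−0.28 ± 0.14), each a log2 difference with its SE and each with an adjusted p of 0.737. The same control libraries enter the comparison of female with male controls below, in which each of these 7 genes was higher in females.

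The genes that medium spiny neurons use most were followed across all 12 groups. Adcy5 (ENSMUSG00000022840.9; chromosome 16, 35154877 to 35305738 on mm10) averaged 402 ± 159 CPM in male D1 targeted libraries and was lowest in male D1 controls, with 250.7, 275, 279.7 and 306 CPM in the 4 libraries. In females of the D1 arm it averaged 507 ± 118 CPM in targeted and 575 ± 141 CPM in control libraries. It was highest on average in female D1D2 controls, with 634 ± 149.9 CPM, against 553 ± 216 CPM in the targeted libraries of that arm. In the male D1D2 arm it averaged 562 ± 186 CPM in targeted and 492.8 ± 289 CPM in control libraries, which alone ran from 129 to 976 CPM. In the D2 arms it averaged 426 ± 49.0 (targeted) and 537 ± 182 CPM (control) in females and 457 ± 129 (targeted) and 546 ± 226 CPM (control) in males. The 4 male D1 controls lay close together.

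Pde10a (ENSMUSG00000023868.17; chromosome 17, 8525372 to 8986648) had 377, 559 and 937 CPM (lowest, median and highest) in female D1D2 controls and 242, 283, 356 and 391.8 CPM in male D1 controls, again the lowest group. Its highest mean was 711 ± 258 CPM in male D2 controls, where the batches differed. Within batch 1 male D2 mice had 419 ± 66.8 CPM in targeted and 483 ± 44.8 CPM in control libraries, and within batch 2 they had 721 ± 205 and 787 ± 255 CPM. Rgs9 (ENSMUSG00000020599.13; chromosome 11, 109225355 to 109298129) averaged 149.7 ± 46.6 CPM in female D1D2 controls and 88.8 ± 13.6 CPM in male D1 controls. Pde1b (ENSMUSG00000022489.6; chromosome 15, 103503034 to 103530052) averaged 624.7 ± 147 and 357 ± 41.3 CPM in those groups, Gnal (ENSMUSG00000024524.17; chromosome 18, 67088216 to 67226792) 401 ± 79.8 and 219 ± 14.9 CPM, and Gng7 (ENSMUSG00000048240.14; chromosome 10, 80948624 to 81014945) 335 ± 66.0 and 166 ± 17.3 CPM. Each of these 6 genes had its lowest group mean in male D1 controls. Group means of Prkar2b ran from 119 to 145 CPM and Rgs2 group means from 97.5 to 126 CPM. Rgs4 group means ran from 206 CPM in male D2 controls to 348 CPM in female D1 controls.

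**Figure D3:**
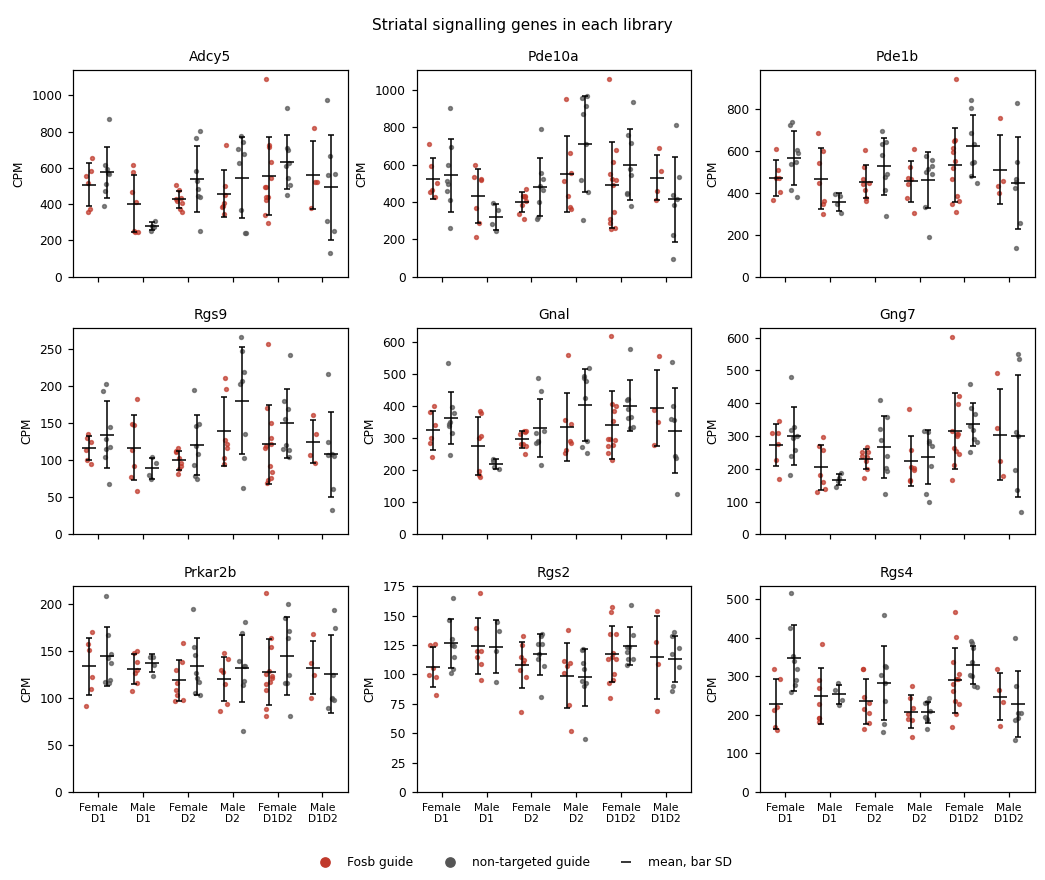
Levels in CPM of 9 striatal genes of the module in every library, by arm, with the Fosb guide left of the non-targeted guide and bars for the mean and SD. Male D1 controls lie low and close together for Adcy5 (250.7 to 306 CPM), and male D1D2 controls spread widest, from 129 to 976 CPM.

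A test of any difference among the 12 groups, with batch in the model, called 6 of the 34 genes (17.6%), close to the background of 16.4%. They were Prkar1b (adjusted p = 0.00215), Adcy3 (0.00288), Pde2a (0.00954), Prkaca (0.0133), Adcy9 (0.0223) and Rgs4 (0.0418). For Prkar1b, Adcy3, Pde2a, Prkaca and Adcy9 the lowest group mean was that of male D1 controls, with 170.4, 25.7, 69.8, 67.7 and 34.7 CPM. The count was 19 with limma-voom, 15 with no batch term and 10 without libraries 18722 and 18749. The shares of all genes passing in those alternatives are not given here, so these counts lack a background.

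The only comparisons between groups in which many of the 34 genes passed were those among control libraries. Over the D1 and D1D2 arms, 15 of 34 (44.1%) were higher in female than in male controls and none was lower, where 23% of all genes passed in either direction, 11.9% of them higher. By role these were 3 of 8 adenylyl cyclases, 5 of 10 phosphodiesterases, 3 of 6 PKA subunits, 2 of 6 RGS genes and 2 of 4 G protein subunits. The median log2 fold change over the 34 was 0.31, against −0.026 over all genes, and 31 of 34 lay above 0, where 47.3% of all genes did.

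Of the cyclases, Adcy3 (ENSMUSG00000020654.15; chromosome 12, 4133103 to 4213525) had 31.6, 46.6 and 62.9 CPM (lowest, median and highest) in the 16 female controls and 20.5, 32.5 and 53.8 CPM in the 11 male controls. The ranges overlap, and the female median lies above all but 1 of the male libraries. Its log2 fold change was 0.59 ± 0.12 (adjusted p = 0.000725). Adcy5 averaged 604 ± 144 CPM in female and 415 ± 249 CPM in male controls, a log2 fold change of 0.71 ± 0.20 (adjusted p = 0.00797), and Adcy9 50.5 ± 8.47 and 39.2 ± 11.7 CPM, a log2 fold change of 0.41 ± 0.11 (adjusted p = 0.00566). Among the phosphodiesterases Pde2a (ENSMUSG00000110195.1; chromosome 7, 101421691 to 101512827) had 105, 133 and 223 CPM in female and 40.8, 88.5 and 200.1 CPM in male controls. Its log2 fold change was 0.68 ± 0.16 (adjusted p = 0.00174), that of Pde10a 0.65 ± 0.21 (adjusted p = 0.0171), that of Pde1b 0.58 ± 0.17 (adjusted p = 0.0125), that of Pde8b 0.37 ± 0.11 (adjusted p = 0.0131) and that of Pde4b 0.28 ± 0.085 (adjusted p = 0.0134).

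In the PKA family Prkar1b (ENSMUSG00000025855.13; chromosome 5, 139017306 to 139150001) averaged 285 ± 34.3 CPM in female and 228 ± 72.4 CPM in male controls, a log2 fold change of 0.43 ± 0.12 (adjusted p = 0.00813). Both catalytic subunits were higher as well, Prkacb by 0.34 ± 0.098 (adjusted p = 0.0095) and Prkaca by 0.30 ± 0.099 (adjusted p = 0.0203) on the log2 scale. Prkar1a, Prkar2a and Prkar2b did not pass, with 0.027 ± 0.066 (adjusted p = 0.805), 0.14 ± 0.092 (adjusted p = 0.262) and 0.14 ± 0.13 (adjusted p = 0.473). Rgs4 averaged 339 ± 67.8 CPM in female and 237 ± 69.3 CPM in male controls, a log2 fold change of 0.50 ± 0.15 (adjusted p = 0.0124), and Rgs9 gave 0.54 ± 0.20 (adjusted p = 0.0395). Of the G protein subunits Gnal gave 0.52 ± 0.15 (adjusted p = 0.00849) and Gnb5 0.27 ± 0.10 (adjusted p = 0.0392), while Gng7 with 0.51 ± 0.21 (adjusted p = 0.0667) and Gnas with 0.14 ± 0.14 (adjusted p = 0.502) did not pass. The values below 0 were those of Pde1a (−0.20 ± 0.14), Pde4d (−0.0045 ± 0.10) and Rgs7 (−0.11 ± 0.097).

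Each arm was also taken alone, in contrasts added after the data were seen. Within the D1 arm, 10 of 34 genes passed (29.4%), all higher in female controls, against a background of 22.4% in either direction and 12.6% higher (9.71% lower). Adcy5 had 387, 571 and 870.0 CPM in the 8 female D1 controls and 250.7, 275, 279.7 and 306 CPM in the 4 male D1 controls, which do not overlap, and its log2 fold change was 1.05 ± 0.31 (adjusted p = 0.0114). Pde2a gave 0.99 ± 0.24 (adjusted p = 0.00308), Gng7 0.85 ± 0.32 (adjusted p = 0.0493), Adcy3 0.82 ± 0.19 (adjusted p = 0.00181), Gnal 0.73 ± 0.23 (adjusted p = 0.0167) and Prkar1b 0.71 ± 0.19 (adjusted p = 0.0057), and Pde8b, Prkacb, Prkaca and Adcy9 passed as well, with log2 fold changes from 0.46 to 0.54. Within the D1D2 arm 0 of 34 passed (background 0.0629%), with 7 under an unadjusted 0.05 (7.04% of all genes) and a median log2 fold change of 0.20. Adcy5 had 449, 617 and 931 CPM in the 8 female and 129, 561 and 976 CPM in the 7 male D1D2 controls, a log2 fold change of 0.36 ± 0.25 (adjusted p = 0.763). The sex difference of the D1 arm minus that of the D1D2 arm called 0 of 34 (background 0%, with 3 of the 34 and 13.6% of all genes under an unadjusted 0.05). For it limma-voom called 6, and the share of all genes in that fit is not given here.

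Targeted libraries of the same arms gave 0 of 34 genes (background 0.0787%, with 5 of the 34 and 10.8% of all genes under an unadjusted 0.05). The median log2 fold change was 0.099, and 29 of 34 lay above 0, where 49% of all genes did. Adcy5 averaged 537 ± 186 CPM in the 18 female and 460.2 ± 179 CPM in the 11 male targeted libraries, a log2 fold change of 0.15 ± 0.20 (adjusted p = 0.802). The sex difference in targeted libraries minus that in controls called 0 of 34 as well (background 0%, with 9 of the 34 and 7.09% of all genes under an unadjusted 0.05), with a median of −0.21 and a lowest adjusted p of 0.696.

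Other measures moved with sex in these controls. The medium spiny neuron score was 7.76 ± 0.36 in female and 7.38 ± 0.51 in male controls (SD, n = 16 and 11), and the summed level of its 6 markers ran from 1009 to 2149 CPM in female D1 and from 1050.3 to 1273 CPM in male D1 controls. With that score in the model 9 genes passed, 7 of them among the 15, and in the D1 arm alone 10 passed, 8 of them among the 10 there. The share of all genes passing with that score is not given here. All 4 markers of cholinergic interneurons were higher in female D1 controls and passed, and their score was 3.19 ± 0.30 in female and 2.05 ± 0.36 in male D1 controls (SD, n = 8 and 4). Over all genes, the median log2 fold change of female D1 over male D1 controls differed with the GC content of transcripts, with −0.33 in the lowest quintile and 0.28 in the highest. With offsets corrected for GC content 10 of the 15 genes passed over both arms and 4 of the 10 in the D1 arm alone, where Adcy3, Pde2a, Prkacb and Gnal stayed. Without male D1 control library 17789, 6 of the 10 passed. Leaving out the 3 libraries labelled female with the most Y-linked transcripts gave 14 over both arms. The shares of all genes passing in these last fits are also not given here, so their counts lack a background. The part of these measures in the sex difference was not tested beyond these counts.

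**Figure D4:**
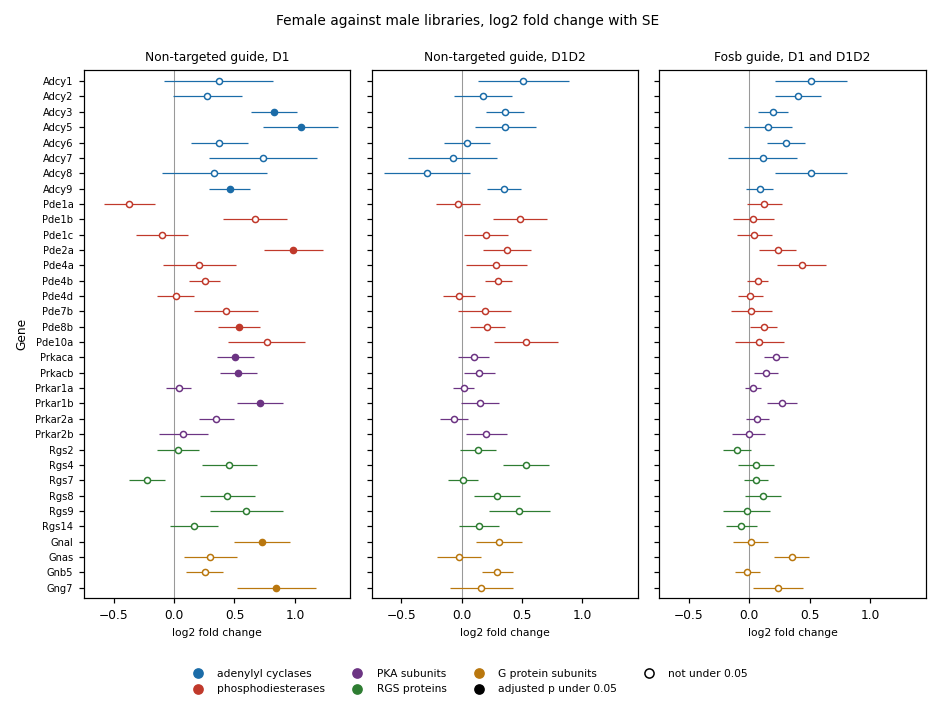
Log2 fold change, female over male, of the 34 genes in D1 controls, in D1D2 controls and in targeted libraries of both arms, with bars for the standard error and filled dots for an adjusted p under 0.05. The 10 filled dots in D1 controls all lie above 0, Adcy5 farthest at 1.05, and no dot is filled in D1D2 controls or in targeted libraries.

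Control groups of different arms were set against each other too. In males, 5 of 34 genes (14.7%) were higher in D1D2 than in D1 controls and none lower, against a background of 10.1% in either direction and 7.53% higher (2.56% lower). Prkaca had 72.7, 88.1 and 119 CPM in the 7 D1D2 controls and 58.4, 60.7, 64.9 and 86.7 CPM in the 4 D1 controls, with 1 high D1 library inside the D1D2 range, and a log2 fold change of 0.51 ± 0.16 (adjusted p = 0.0276). Prkar1b gave 0.61 ± 0.19 (adjusted p = 0.0334), Pde2a 0.74 ± 0.25 (adjusted p = 0.0425), Adcy3 0.56 ± 0.19 (adjusted p = 0.0454) and Prkar2a 0.43 ± 0.15 (adjusted p = 0.0457). None of the 5 passed when male D1 control library 17789, 18068 or 18069 was left out, and none with GC-corrected offsets or with no batch term. With limma-voom 16 of the 34 passed, and the share of all genes in that fit is not given here. In females 0 of 34 passed between D1D2 and D1 controls (background 0.00393%) and 0 of 34 between D2 and D1 controls (background 0.0197%, as 0.00787% higher and 0.0118% lower), with 0 of the 34 under an unadjusted 0.05 in either, against 3.98% and 3.91% of all genes.

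The highest share of the 34 genes passed not between groups but along the level of medium spiny neuron markers. The score used for it, added after the data were seen, is the mean log2 CPM of 6 markers, Ppp1r1b and Bcl11b among them, none of which is in the module, scaled to an SD of 1 over libraries and put beside group and batch in the model. With it, 24 of 34 genes (70.6%) followed the score, 20 upward and 4 downward, against 28.1% of all genes, 14.4% upward and 13.7% downward. The slopes, as log2 change per SD of the score, were steepest for Pde10a (0.49 ± 0.023), Rgs9 (0.48 ± 0.021), Gng7 (0.46 ± 0.031), Adcy5 (0.44 ± 0.028), Pde1b (0.41 ± 0.021) and Pde7b (0.40 ± 0.022). The lowest adjusted p was that of Rgs9, 1.27e-32. Gnal (0.33 ± 0.019), Rgs8 (0.33 ± 0.023), Pde2a (0.30 ± 0.026), Pde1c (0.29 ± 0.025), Prkar2b (0.27 ± 0.023) and Pde8b (0.25 ± 0.016) followed. Rgs4, Rgs14, Gnb5, Prkacb, Adcy3, Rgs2, Pde4b and Adcy9 rose with the score by 0.11 to 0.20 per SD.

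The genes that fell with that score were Adcy8 (−0.35 ± 0.061), Adcy6 (−0.21 ± 0.033), Gnas (−0.12 ± 0.036) and Pde1a (−0.11 ± 0.037). Of the PKA regulatory subunits Prkar2b alone followed the score, while Prkar1a gave 0.017 ± 0.018 (adjusted p = 0.503), Prkar1b −0.0018 ± 0.033 (adjusted p = 0.978) and Prkar2a 0.028 ± 0.025 (adjusted p = 0.416). The catalytic subunit Prkaca gave 0.026 ± 0.027 (adjusted p = 0.483). Close relatives differed in sign. Gnal against Gnas, Adcy5 against Adcy6 and Pde1b against Pde1a had slopes of opposite sign, each past the threshold, though Gnas and Pde1a did not pass with GC-corrected offsets or limma-voom. Library 19511, a male D1D2 control that was lowest for 13 of the genes, had the lowest score of all, 6.34, where the 87 libraries averaged 7.60 ± 0.39. The count ran from 23 to 26 over the 9 alternatives, with 25 when that library was left out.

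The score of cortical glutamatergic markers, which neighbouring cortex in a dissection can carry, gave 14 of 34 genes (41.2%), 12 upward and 2 downward. Of all genes 33.4% passed, 16% upward and 17.4% downward. At an unadjusted p under 0.05 the counts were 18 of the 34, against 42.2% of all genes. Adcy1 was steepest, with 0.63 ± 0.049 per SD (adjusted p = 1.67e-18), and Pde4a followed with 0.42 ± 0.036, Adcy2 with 0.34 ± 0.042, Adcy8 with 0.27 ± 0.081, Adcy6 with 0.23 ± 0.039, Gnas with 0.19 ± 0.038, Pde1a with 0.18 ± 0.038 and Rgs7 with 0.15 ± 0.026. Adcy9, Prkar1b, Pde4d and Prkar1a rose by 0.054 to 0.12 per SD. Adcy7 (−0.35 ± 0.084) and Rgs2 (−0.15 ± 0.033) fell. Adcy8, Adcy6, Gnas and Pde1a, which rose with this score, fell with the medium spiny neuron score. The summed level of the 7 cortical markers ran from 4.75 to 971 CPM over all libraries, and none of the 7 was at 0 in every library.

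A score of interferon-stimulated genes, which also differed widely between libraries, gave 16 of 34 (47.1%), in total near the background of 54.3%. By direction 1 rose and 15 fell, where 26% of all genes rose and 28.3% fell. Adcy7 alone rose with it, by 0.61 ± 0.059 (adjusted p = 9.19e-15) per SD, and 15 genes fell with it, with slopes from −0.23 (Adcy8) to −0.067 (Prkaca). Adcy7 ranged from 3.47 to 38.9 CPM within female D1D2 controls, whose interferon scores ran from 1.64 to 7.90.

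**Figure D5:**
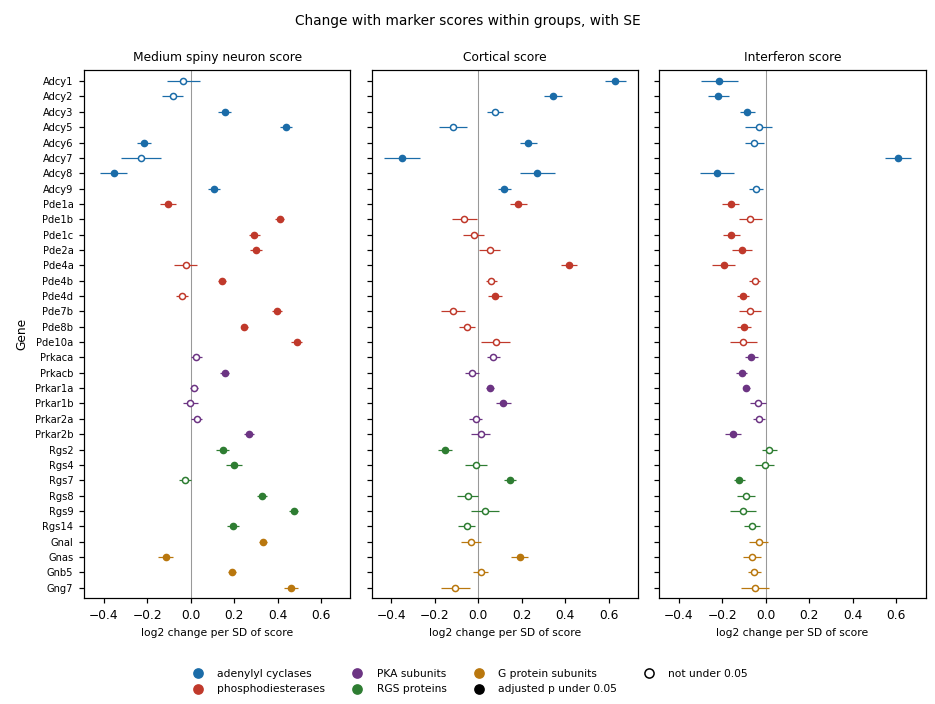
Slope of each of the 34 genes, as log2 change per SD of the score, against the medium spiny neuron, cortical and interferon scores, with bars for the standard error and filled dots for an adjusted p under 0.05. Pde10a, Rgs9, Gng7 and Adcy5 lead the medium spiny neuron panel at 0.44 to 0.49, Adcy1 leads the cortical panel at 0.63 and Adcy7 the interferon panel at 0.61.

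Other genes of the pathway were counted from lists chosen by role. Of 36 further cyclases, phosphodiesterases, PKA inhibitors, RGS proteins and G protein subunits, and of 29 measured receptors above and targets below cAMP, none passed between guides in any arm. Between female and male controls the 36 family members gave 4 higher and 3 lower, where 11.9% of all genes were higher and 11.1% lower, so that 7 of 36 is near the background of 23%. Their median log2 fold change was 0.021, against 0.31 for the 34 genes of the module. Against the same background, the receptors and targets gave 9 higher and 0 lower of 29, with a median of 0.42. They were the receptors Drd2 (0.70 ± 0.22), Chrm4 (0.69 ± 0.17), Adora1 (0.49 ± 0.15), Oprd1 (0.64 ± 0.18) and Gpr158 (0.68 ± 0.14), the Rgs9 anchor Rgs7bp (0.53 ± 0.16), the PKA anchor Akap12 (0.64 ± 0.25), the cAMP-responsive exchange factor Rapgef2 (0.63 ± 0.13) and the CREB coactivator Crtc1 (0.54 ± 0.18). With the medium spiny neuron score, 7 of the 36 family members rose and 7 fell, and 20 of the 29 receptors and targets rose and 3 fell, where 14.4% of all genes rose and 13.7% fell. The counts of the family members are near that background. That list and the score share genes, Ppp1r1b among them, so that part of this count is built in.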

How the data were processed

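RNA of nucleus accumbens was extracted with RNeasy columns and sequenced as ribosomal-depleted, stranded total RNA libraries, per the labels' protocols. The authors deposited raw counts per gene in 1 table; tools listed in the submitters' processing notes are HISAT2, Trim Galore, featureCounts (Subread), SAMtools and DESeq2 1.27, with build mm10, while the annotation and strand setting are not stated there. Of 88 labelled samples 87 had a column. A column that fits none of the labels (1 in all) was left out. Of 55487 IDs, 93 had no symbol in the GENCODE table and were kept in the fit. Positions are from GENCODE on mm10.

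Counts were analysed with R 4.3.3 and edgeR 4.0.16: TMM scaling, filterByExpr by group, and the robust quasi-likelihood test in 1 model of 12 groups and sequencing batch, as given in the labels, with Benjamini-Hochberg adjustment over 25420 genes and a threshold of 0.05. CPM values are counts over TMM-scaled library sizes. Batch 2 holds male D2 libraries only. The SE is the log2 fold change over the square root of F. Marker scores are means of log2 CPM with a prior count of 2; not every marker is reported here by name. Alternatives used DESeq2 1.42.0 and limma 3.58.1, other scaling and filters, marker scores or GC content in the model, and libraries left out. The steps were tested on simulated data. In each comparison all genes of the module that passed are described, otherwise up to 4 of lowest p, and 9 striatal genes are followed across groups whatever their values. The genes, lists and tests were chosen with earlier results of these data known.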

Additional observations from a re-analysis of the deposited data

Results flagged for a closer look

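Of 135 sets of values, each of 1 gene in 1 group of 4 to 10 libraries, 6 held a library that stood apart from the rest of its group by Dixon's criterion, where chance gives about 1 in 20. That share is not above what chance gives, so the cases below are descriptions only. The male D2 groups hold both batches, and libraries 3128 and 3631 are from batch 2. Male D2 targeted library 3128 stood high for Adcy5, with 727 CPM, and for Gnal, with 559 CPM. Female D1D2 control library 19750 stood high for Gnal with 579 CPM, and male D1D2 targeted library 19211 for Pde1b with 760.6 CPM. Each of these 3 libraries also had the highest medium spiny neuron score of its group, with 8.14, 8.48 and 8.10. Male D1 control library 18383 stood high for Pde2a with 88.5 CPM, and its cortical score was 4.49. Male D2 control library 3631 stood low for Rgs2 with 45.5 CPM. It had the lowest medium spiny neuron score of its group, 6.58, and the highest cortical score, 5.15. The part of these scores in the values was not tested.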

How the results depend on the processing

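Of the counts of genes passing under alternatives, 443 were within 1.5 times the main count and 21 were not, and a guide comparison gave other than 0 once. A count of 0 against a main count of 0 was taken as within that limit, so comparisons in which no gene passed add to the 443. Genes passing for any difference among groups numbered 19 with limma-voom, 15 with no batch term, 10 without libraries 18722 and 18749, and 6 to 11 when 1 library was left out. Female over male D1 controls gave 4 with GC-corrected offsets, 19 with limma-voom and 6 to 12 with 1 library left out. Female over male controls of both arms gave 9 with the medium spiny neuron score. Male D1D2 over D1 controls gave 2 with DESeq2 size factors or no filter, 0 with GC-corrected offsets or no batch term, 16 with limma-voom and 8 with cortical and interferon scores. With 1 library left out they gave 0 to 8, the 8 being without library 19511. Limma-voom gave 6 for the D1 minus the D1D2 sex difference and 1, Adcy3, for the guide in male D1 mice. The causes were not tested, and the shares of all genes passing in these alternatives are not given here. With size factors the median of all genes was −0.10 for female over male controls and 12 of the 15 genes passed.

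Single genes kept their direction and side of the threshold in 2419 refits, against 114 no longer passing, 5 newly passing and 14 of other sign, none of which had passed. The genes refitted include those of lowest p in comparisons where none passed. Such genes could not lose a call, so the 2419 is no measure of how well calls held. With cortical and interferon scores Pde4a gave −0.067, Pde4d −0.013 and Adcy1 −0.046 in female D1D2 over D1 controls, with the cortical score Adcy1 −0.053, and with the interferon score Pde1c −0.025. For the guide in female D1 mice Pde4a gave −0.071 with both scores and −0.10 with the cortical score, and in targeted female over male libraries −0.019 and −0.039. GC-corrected offsets gave Rgs7 0.079 in the male D1D2 arm and 0.039 over both D1D2 arms. Prkar1a over both D1D2 arms gave 0.055 with GC-corrected offsets, 0.0053 with both scores and 0.011 with the interferon score. Alternatives with the interferon or medium spiny neuron score, GC content or without libraries 19511, 17376, 19598 and 19749 were chosen after seeing the data. No paired analysis was possible because replicate numbers are in accession order and pair no libraries.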
